A study of Mus musculus with 21 samples.

Results

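The families of secreted or membrane-bound matrix proteases and their inhibitors, 3 in number, were followed in 21 mouse skin libraries: the matrix metalloproteinases (MMPs), the ADAMTS proteases and the tissue inhibitors of metalloproteinases (TIMPs). Members were taken by symbol, as Mmp or Adamts followed by a number and Timp1 to Timp4, which gave 46 of the 64050 symbols counted: 23 MMP, 19 ADAMTS and 4 TIMP genes. The libraries come from a transplantation model of sclerodermatous graft-versus-host disease, in which BALB/c recipients aged 8 weeks were irradiated with 700 cGy and given bone marrow. In all, 4 allogeneic groups had marrow from B10.D2 donors. They received mCAN10, an antibody to the co-receptor IL1RAP (4 libraries, called mCAN10), the isotype antibody mIgG2a LALA-PG (4 libraries, Allo), nintedanib, an inhibitor of growth factor receptor kinases (5 libraries, Nin), or water (4 libraries, Allo_H). Syngeneic recipients with BALB/c marrow and the same isotype antibody made up the fifth group (4 libraries, Syn). Dosing started on day 21, with tissue collected in week 7. For the antibodies the first dose was 20 mg/kg and later doses 10 mg/kg. Nintedanib was dosed at 50 mg/kg, by mouth in the protocol but by injection in the design text, so its route is uncertain here. Each library is bulk RNA from a skin piece 3 mm across, in which fewer cells of a type and less RNA per cell cannot be told apart.

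MMPs are zinc proteases that cut collagens, gelatin, elastin and other matrix proteins, and most are made as inactive proenzymes. ADAMTS proteases carry thrombospondin repeats that bind them to the matrix, where they cut proteoglycans, trim procollagens or shape microfibrils. TIMPs bind the active site of metalloproteinases and block it. In skin the enzymes come from keratinocytes, fibroblasts and infiltrating leukocytes, and they are known for their part in wound repair and fibrosis.

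Promoter windows of the 3 families were searched for known sequence elements, and 6 of them are shown. They belong to members on which the results below turn, with Mmp3 as a neighbour that did not pass the test. Windows came from RefSeq (GRCm38.p6), which gave one or more for 32 of the 46 members. Mmp9, Mmp19, Mmp2, Adamts5 and Adamts10 are among the members without a window, so their promoters were not searched. The 250 bases before each annotated start were searched on both strands for 3 motifs. The AP-1 motif was TGAGTCA with its reverse complement. The TATA box was searched as TATAAA. The GC box was searched as GGGCGG. The AP-1 motif was in 7 of 21 MMP windows (33.3%), in 0 of 10 ADAMTS windows and in 0 of 4 TIMP windows, against 4.46% of all 32851 windows. The 7 windows belong to Mmp13, Mmp10, Mmp12, Mmp3, Mmp1a, Mmp1b and Mmp7, which all lie on chromosome 9 among related, neighbouring genes and are therefore not independent cases. GC boxes were in 28.6% of MMP, 70.0% of ADAMTS and 75.0% of TIMP windows and in 32.7% of all windows. TATA boxes were in 38.1% of MMP, 10.0% of ADAMTS and 0 of 4 TIMP windows, against 12.4% of all. A match describes letters and not a binding site, and 10 and 4 windows are too few to show a lack of AP-1 motifs.

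Printed are the 150 bases before the start, 5′ to 3′ on the gene's strand, with the motif letters in capitals. They are chr9:7272364-7272513 (plus strand) for Mmp13, chr9:7502192-7502341 (plus) for Mmp10, chr9:7347224-7347373 (plus, the second of 2 annotated starts) for Mmp12, chr9:7445672-7445821 (plus) for Mmp3, chr16:85803114-85803263 (minus) for Adamts1 and chr10:86300262-86300411 (plus) for Timp3. Capitals mark the AP-1 motif and the TATA box in Mmp13, Mmp10 and Mmp3, the AP-1 motif alone in Mmp12, a TATA box and 3 GC boxes in Adamts1, and 1 GC box in Timp3. No capital stretch belongs to more than one motif.
Mmp13: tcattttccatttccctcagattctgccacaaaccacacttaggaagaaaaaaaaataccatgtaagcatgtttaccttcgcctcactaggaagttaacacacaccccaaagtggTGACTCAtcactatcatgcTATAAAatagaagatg
Mmp10: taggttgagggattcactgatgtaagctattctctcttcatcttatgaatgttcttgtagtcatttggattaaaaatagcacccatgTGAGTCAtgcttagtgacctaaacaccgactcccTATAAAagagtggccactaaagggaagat
Mmp12: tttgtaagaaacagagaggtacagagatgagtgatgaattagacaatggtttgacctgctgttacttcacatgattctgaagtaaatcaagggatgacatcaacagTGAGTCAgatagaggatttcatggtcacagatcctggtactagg
Mmp3: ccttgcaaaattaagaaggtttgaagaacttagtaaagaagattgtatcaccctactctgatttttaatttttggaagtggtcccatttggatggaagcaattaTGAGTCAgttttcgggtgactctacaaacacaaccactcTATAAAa
Adamts1: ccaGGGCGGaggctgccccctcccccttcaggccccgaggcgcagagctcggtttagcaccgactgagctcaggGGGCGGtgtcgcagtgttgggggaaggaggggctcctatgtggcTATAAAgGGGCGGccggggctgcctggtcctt
Timp3: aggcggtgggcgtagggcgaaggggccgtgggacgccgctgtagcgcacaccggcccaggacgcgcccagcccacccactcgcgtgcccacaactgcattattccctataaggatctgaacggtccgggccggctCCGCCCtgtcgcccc
Counted from the start, the AP-1 motif begins at base -35 in Mmp13, -63 in Mmp10, -44 in Mmp12 and -46 in Mmp3.

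Total counts per library ran from 17130264 to 32899212. The mCAN10, Allo and Syn libraries were counted in one run and the Nin and Allo_H libraries in another, so comparisons stay within a run. The gap between runs is visible in single members: the membrane-type protease Mmp24 had 10.7 to 31.3 CPM (counts scaled to library size with TMM factors) in the 12 libraries of the first run and 0 to 0.34 CPM in the 9 of the second. Other features moved with the groups. Skeletal muscle markers (15 genes) summed to 5012 to 29532 CPM in mCAN10, 27.6 to 69966 CPM in Allo and 42588 to 66626 CPM in Syn libraries, with 27.6 CPM in Allo replicate 1 alone, where Myh4 was at 0. Hair follicle markers (18 genes) summed to 63468 CPM in Nin replicate 1 and 22785 CPM in Nin replicate 3, against 38.9 to 62.8 CPM in the other Nin and 41.9 to 423 CPM in the Allo_H libraries. In the first run they summed to 656 CPM in Allo replicate 1, and to 34.8 to 45.8 CPM in mCAN10, 27.7 to 54.9 CPM in the other Allo and 27.1 to 48.7 CPM in Syn libraries. Y-linked counts (4 genes) were above 0 in every Syn library (2.73 to 6.61 CPM in sum) and in none of the Allo or Allo_H libraries, and they were 0 in 3 of 4 mCAN10 and 3 of 5 Nin libraries. Of the 46 members, 40 passed the filter on low counts (18 MMP, 18 ADAMTS and 4 TIMP). The others are Adamts13, which cuts von Willebrand factor, the collagenases Mmp1a and Mmp1b, the tooth enamel protease Mmp20, Mmp21 and matrilysin (Mmp7), none of which exceeded 0.798 CPM in any library.

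The first comparison, Allo against Syn, asks how the skin of allogeneic recipients differs under the same isotype antibody. Several MMPs of inflamed tissue were higher in Allo skin: the collagenases Mmp13 and Mmp8, the stromelysin Mmp10, the macrophage elastase Mmp12, the gelatinase Mmp9, the membrane-anchored Mmp25 and Mmp19. The membrane-bound Mmp15 and Mmp23 were lower. Most called ADAMTS genes were lower, with Adamts5 at a log2 fold change of -1.74 ± 0.28 (SE), while Adamts1 and Adamts17 were higher. Among the inhibitors Timp1 rose and both Timp2 and Timp3 fell. A gene is called at an adjusted p under 0.05 (edgeR, Benjamini-Hochberg over 20462 genes). By that rule 10 members were higher and 9 lower, where 13.8% of all genes tested were higher and 8.8% lower (22.6% together). By family, 7 MMPs were higher and 2 lower, 2 ADAMTS genes were higher and 5 lower, and 1 TIMP was higher and 2 lower. Of the 40 tested members, 9 were higher and 10 lower with no overlap between the groups, where 16.8% of all genes were higher and 12.5% lower in that way (29.2% together). The lower ones include Adamts16, parted only by 1 count in Allo replicate 3 against 2 counts in Syn replicate 1. Adamts13, which was not tested, also lay apart, at 0.367 to 0.563 CPM in Allo and 0 to 0.179 CPM in Syn skin. The median log2 fold change was 0.38 over the 18 tested MMPs, -0.76 over the 18 ADAMTS genes and -0.34 over the 4 TIMPs, against 0 over all genes. Adamts16 and Mmp10 passed the filter through few libraries, and Adamts3 through Nin and Allo_H libraries only. Mmp13 and Mmp8 passed it with 0 Syn libraries over the limit. These counts and medians therefore only describe the members.

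**Figure D1:**
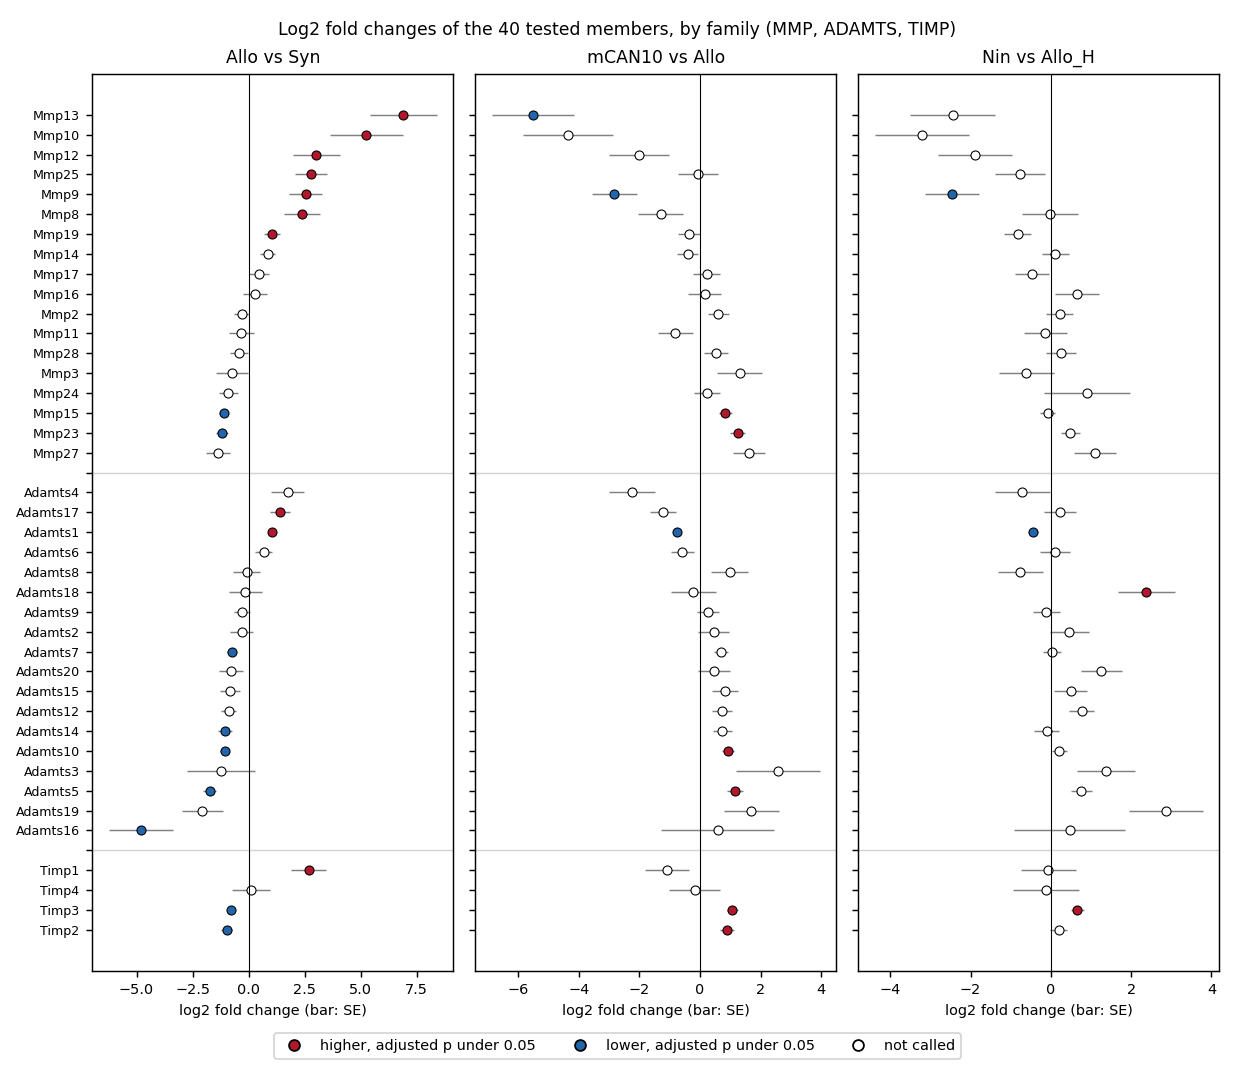
Log2 fold change (points, with SE bars) of the 40 tested members in 3 comparisons: Allo over Syn, mCAN10 over Allo and Nin over Allo_H. Rows run from MMPs at the top through ADAMTS genes to TIMPs, ordered by Allo over Syn within a family, and filled points passed an adjusted p of 0.05. Mmp13 has the highest value in the first panel (6.91) and the lowest in the second (-5.51).

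Mmp13, collagenase 3, which cuts fibrillar collagen, had 61.6, 7.38, 20.1 and 8.75 CPM in Allo skin, against 0.156, 0.214, 0.269 and 0.164 CPM in Syn skin. Every Allo library was far above every Syn library, though Allo replicate 1 stood over the rest of its group. The log2 fold change was 6.91 ± 1.5 (adjusted p = 0.00314). It was 5.89 without Allo replicate 1 and 5.83 with muscle content as a covariate. Mmp8, the collagenase stored in neutrophils, was sparse, with 0.917, 0.572, 1.02 and 0.375 CPM in Allo against 0.117, 0.129, 0.0448 and 0.229 CPM in Syn skin. The groups did not overlap, and the change was 2.39 ± 0.79 (adjusted p = 0.0343). The interstitial collagenases Mmp1a and Mmp1b are related genes, and the assignment of reads between them was not checked. They had 10 and 17 counts over the Allo libraries and 0 over the Syn libraries. Against a limit of 3 counts for the group at 0, that is 4.37-fold and 7.43-fold higher. The counting error of the 10 and 17 counts is not in these folds. All 10 counts of Mmp1a and 12 of the 17 counts of Mmp1b came from Allo replicate 1. In the GENCODE M21 annotation 10.8% of the exon bases of Mmp1b overlap the far more abundant Mmp12 on the other strand, and the kit does not mark strand, so reads of such pairs cannot be told apart.

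Mmp9, gelatinase B, which digests denatured collagen and basement membrane collagen, had 129, 76.5, 89.7 and 69.3 CPM in Allo skin against 14.7, 15.1, 17.2 and 15.4 CPM in Syn skin. The lowest Allo value was well above the highest Syn value. Its log2 fold change was 2.55 ± 0.73 (adjusted p = 0.0172). The other gelatinase, Mmp2 of fibroblasts, had 313, 123, 115 and 339 CPM in Allo and 295, 324, 263 and 224 CPM in Syn skin, and did not pass (-0.31 ± 0.35, adjusted p = 0.576). In all, 2 Allo libraries lay below the Syn range, 1 within it and 1 above.

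Mmp10, stromelysin 2, a protease of wound-edge keratinocytes, had 3.99, 0.468, 0.58 and 0.25 CPM in Allo against 0.039, 0, 0.0448 and 0.0327 CPM in Syn skin. With 112 counts over Allo and 3 over Syn libraries the ratio was 48.9 (95% interval 16.3 to 241, counting error only), and edgeR gave 5.25 ± 1.63 (adjusted p = 0.0258). Most of those counts were in Allo replicate 1. Mmp10 passed the filter through 1 Allo, 1 Nin and 3 Allo_H libraries, with 0 Syn libraries over the limit, so its call is given as a description. Its neighbour Mmp3, stromelysin 1, also with an AP-1 motif near its start, had 42.2, 3.28, 5.13 and 12.7 CPM in Allo and 33.8, 25.5, 24.3 and 22.1 CPM in Syn skin. Mmp3 did not pass (-0.74 ± 0.73, adjusted p = 0.517): 3 Allo libraries lay below all Syn libraries and 1 above. Mmp12, which macrophages make and which cuts elastin, had 115, 67.5, 40.3 and 36.3 CPM in Allo against 1.48, 23.8, 3.54 and 2.85 CPM in Syn skin. The groups did not overlap, with Syn replicate 2 nearest to the Allo range, and the change was 3.03 ± 1.04 (adjusted p = 0.0415). It was 4.62 without Syn replicate 2 and 2.35 with muscle content as a covariate.

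Mmp25, a membrane-anchored protease of leukocytes, had 14.4, 11.7, 7.01 and 4.5 CPM in Allo against 0.624, 1.54, 2.51 and 0.883 CPM in Syn skin (2.77 ± 0.71, adjusted p = 0.00938). Mmp19, which cuts basement membrane proteins, had 73.6, 68.9, 57.7 and 31.6 CPM in Allo against 38.8, 29.5, 22.7 and 22.7 CPM in Syn skin (1.03 ± 0.36, adjusted p = 0.0458). The Mmp25 groups were apart, while Allo replicate 4 put Mmp19 inside the Syn range. Of the exon bases of Mmp19, 22.3% overlap Tmem198b on the other strand. Mmp14, the membrane-type protease that activates the Mmp2 proenzyme, had 324, 177, 107 and 255 CPM in Allo and 108, 115, 136 and 119 CPM in Syn skin and did not pass (0.85 ± 0.35, adjusted p = 0.0865). Mmp15, its close relative, had 21.1, 25.7, 22.4 and 28.9 CPM in Allo against 66.1, 54, 44.5 and 47 CPM in Syn skin, with no overlap (-1.11 ± 0.20, adjusted p = 0.000769). Mmp23, which is anchored at its amino end, had 13.5, 5.62, 4.88 and 9.13 CPM in Allo against 17.6, 20.8, 20.3 and 17 CPM in Syn skin (-1.19 ± 0.25, adjusted p = 0.00271). Both proteases were thus lower in every Allo library, and Mmp25 and Mmp15 moved in opposite directions within the membrane-type group.

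**Figure D2:**
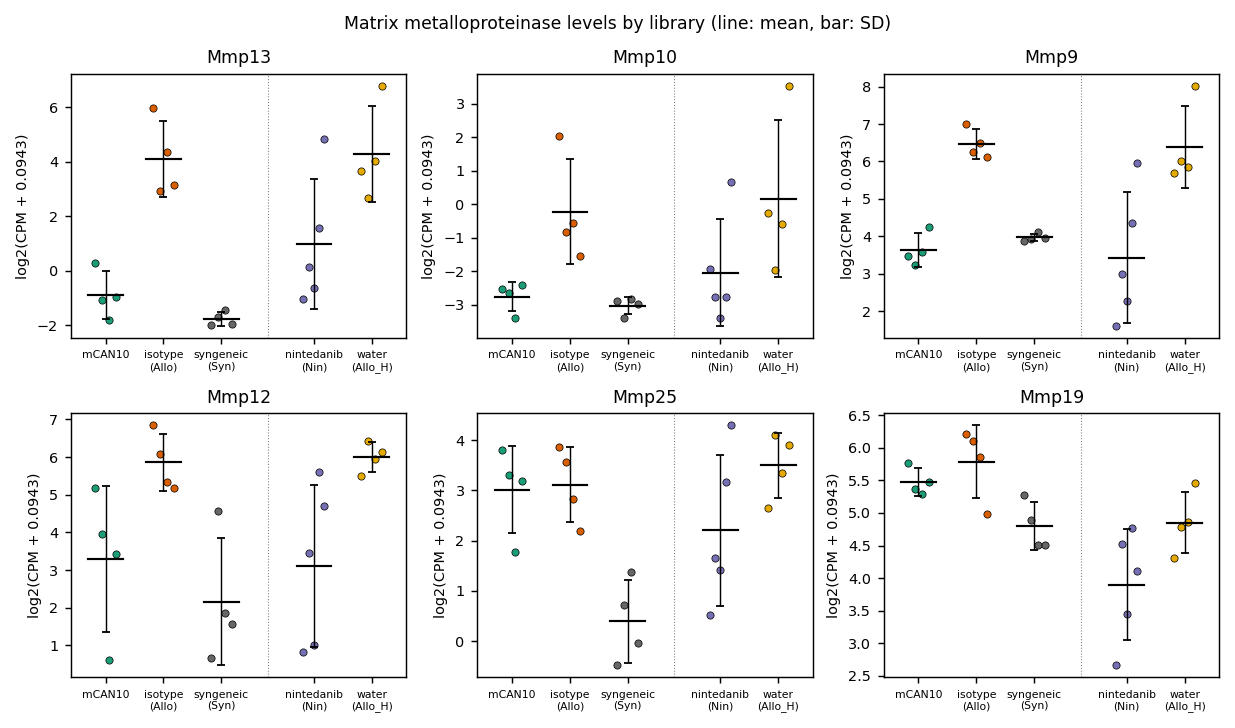
Levels of 6 MMPs in each library as log2(CPM + 0.0943), with the group mean (line) and SD (bar), the dotted line parting the counting runs. Mmp13 and Mmp9 are high in all 4 Allo libraries and low in all mCAN10 and Syn libraries, Mmp25 is as high in mCAN10 as in Allo libraries, and Nin libraries are widely spread.

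Among the ADAMTS proteases that cut aggrecan and versican, Adamts1 had 64.8, 79, 61.4 and 68.8 CPM in Allo against 39.6, 35.3, 31.3 and 28.4 CPM in Syn skin. The spread within each group was small, and the change of 1.03 ± 0.14 had the lowest adjusted p of any member (1e-04). Adamts5 went the other way, with 24.6, 10.7, 9.82 and 20.5 CPM in Allo against 37.9, 51.7, 57 and 72.9 CPM in Syn skin (-1.74 ± 0.28, adjusted p = 0.000323). Adamts4, the third well-known aggrecanase, had 19.1, 5.41, 2.18 and 6.94 CPM in Allo and 1.4, 0.643, 4.48 and 3.56 CPM in Syn skin and did not pass (1.74 ± 0.75, adjusted p = 0.104). Enzymes with shared substrates therefore did not share a direction.

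Adamts10, which binds fibrillin microfibrils, had 29.4, 20.9, 17.2 and 20.5 CPM in Allo against 48, 50.3, 45.5 and 41.3 CPM in Syn skin (-1.07 ± 0.20, adjusted p = 0.000959). Adamts14, a procollagen N-propeptidase, had 20.1, 27.5, 12.5 and 20.8 CPM in Allo against 38.3, 45.3, 41.4 and 42.2 CPM in Syn skin (-1.05 ± 0.32, adjusted p = 0.0258). Neither gene overlapped between the groups. Adamts2, the main enzyme of that kind in skin, did not pass (-0.30 ± 0.51, adjusted p = 0.728), and its Allo libraries ranged from 11 to 95.8 CPM around Syn values of 57.5 to 78.4 CPM. Adamts7, which cuts cartilage oligomeric matrix protein, had 7.75, 4.37, 3.77 and 5.88 CPM in Allo against 11.5, 9.99, 8.95 and 5.92 CPM in Syn skin, with overlap (-0.74 ± 0.24, adjusted p = 0.0297). Adamts17, another microfibril-associated member, had 3.67, 1.2, 1.64 and 1.63 CPM in Allo against 0.702, 0.643, 0.985 and 0.752 CPM in Syn skin (1.40 ± 0.43, adjusted p = 0.0262). Adamts16 had 0.0459, 0, 0.0484 and 0 CPM in Allo against 0.078, 0.815, 0.716 and 1.86 CPM in Syn skin. That is 2 counts over Allo and 94 over Syn libraries, a ratio of 0.0279 (95% interval 0.00333 to 0.104, counting error only), and the fit gave -4.81 ± 1.43 (adjusted p = 0.0212). It passed the filter through 3 Syn libraries and 1 Nin library, with 0 Allo libraries over the limit, so its call is given as a description. It was not tested in the fits of the counting run, of the 2 groups or with muscle content, where it did not pass the filter.

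Timp1, the inducible inhibitor, had 32.7, 12.5, 11.8 and 7.25 CPM in Allo against 1.99, 2.87, 2.91 and 2.22 CPM in Syn skin (2.69 ± 0.78, adjusted p = 0.0179, and 1.94 with muscle content as a covariate). Timp2, which also helps Mmp14 to activate Mmp2, had 357, 261, 254 and 308 CPM in Allo against 551, 668, 556 and 561 CPM in Syn skin (-0.98 ± 0.23, adjusted p = 0.00445). Timp3, which is held in the matrix and also inhibits ADAMTS aggrecanases, had 200, 181, 190 and 147 CPM in Allo against 337, 342, 285 and 262 CPM in Syn skin (-0.77 ± 0.18, adjusted p = 0.00442). The groups did not overlap for any of these inhibitors. In the annotation Timp3 overlaps Syn3, sharing 21.3% of its exon bases with that gene on the other strand. Timp4 did not pass (0.10 ± 0.85, adjusted p = 0.987), with 3.53, 19.3, 21.7 and 15.9 CPM in Allo and 25.7, 8.79, 8.19 and 13.6 CPM in Syn skin.

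**Figure D3:**
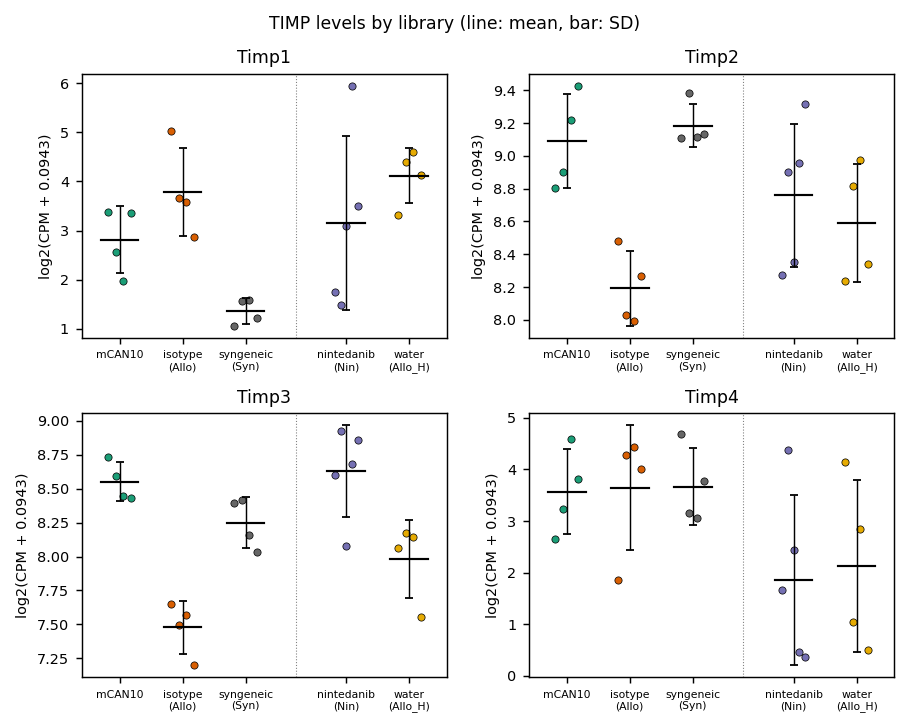
Levels of the 4 TIMPs in each library as log2(CPM + 0.0943), with the group mean (line) and SD (bar). Timp2 and Timp3 are lower in all Allo libraries than in all mCAN10 and Syn libraries, Timp1 is higher in Allo than in Syn libraries, and the Timp4 groups overlap throughout.

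Of these 19 calls, 10 were kept in each of 15 other settings: Mmp13, Mmp9, Mmp25, Mmp15, Mmp23, Adamts1, Adamts5, Adamts10, Timp2 and Timp3. The rest were lost in some, and Mmp10 and Adamts16 passed the filter in 12 of the 15. Without Allo replicate 1 the calls of Mmp10 (3.65, adjusted p = 0.131), Mmp12 (adjusted p = 0.0991), Mmp8, Mmp19, Adamts14, Adamts17 (0.95, adjusted p = 0.132) and Timp1 (2.08, adjusted p = 0.0683) ended, leaving 4 members higher and 11 lower. Without Allo replicate 2, Mmp12, Mmp8, Mmp19, Adamts7 and Adamts16 were lost. Without Allo replicate 3, Mmp8, Mmp19, Adamts7 and Adamts14 were lost. Without Allo replicate 4, Mmp12, Adamts7, Adamts14 and Adamts16 were lost. Mmp10 was lost without any one Syn library (adjusted p = 0.057 to 0.0662). Mmp12 was lost without Syn replicate 1, 3 or 4, Mmp8 without 1, 2 or 3, Mmp19 without 2, 3 or 4, Adamts7 without 1, 2 or 3, Adamts14 without 2 or 4, Adamts16 without 4, Adamts17 without 1, 2 or 4 and Timp1 without 1 (adjusted p = 0.0516). Donor strain (B10.D2 against BALB/c) and the Y-linked counts part the same groups as the graft type, so the 3 cannot be told apart.

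Cell type markers moved with the same groups. Activated keratinocyte markers summed to 4306 to 9321 CPM in Allo and 849 to 1359 CPM in Syn libraries (7 of 9 higher, with Sprr1b at 0 in 1 Syn library). Macrophage markers summed to 1602 to 4635 CPM in Allo and 649 to 1296 CPM in Syn libraries (5 of 10 higher, none at 0). Neutrophil markers summed to 86.4 to 151 CPM in Allo and 59.9 to 89.7 CPM in Syn libraries. Of the 8 tested markers, 4 were higher and 1 lower. The surface marker Ly6g and the granule genes Mpo, Elane, Ngp and Camp were at 0 in 1 or 2 Allo libraries each. In Syn skin Ly6g and Ngp were at 0 in 3 libraries each, Camp in 2, and Mpo and Ltf in 1 each. Fibroblast markers summed to 1037 to 5330 CPM in Allo and 5483 to 7308 CPM in Syn libraries (3 of 10 lower, none at 0). Adipocyte markers summed to 1383 to 5328 CPM in Allo and 4371 to 14591 CPM in Syn libraries (2 of 8 lower, Lep and Car3, none at 0). Endothelial markers summed to 191 to 355 CPM in Allo and 294 to 471 CPM in Syn libraries (2 of 8 lower, Tek and Kdr, none at 0). Of 7 basal keratinocyte markers Krt14 was higher and Krt15 lower. Mast cell markers summed to 18.7 to 209 CPM in Allo and 118 to 184 CPM in Syn libraries. Of these 7 markers only Fcer1a was called, as higher, while the median log2 fold change of the list was -0.63. The part of these cells in the changes of the proteases and inhibitors was not tested. With muscle content as a covariate 7 members were called higher and 15 lower, with 14 of the 19 calls shared, and 5690 of 19438 genes were called in all.

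The second comparison, mCAN10 against Allo, asks what the antibody to IL1RAP changed in allogeneic skin. Mmp13 and Mmp9 were lower in mCAN10 skin, and so was Adamts1. Mmp15, Mmp23, Adamts5, Adamts10, Timp2 and Timp3 were higher. In all, 6 members were called higher and 3 lower, where 5.58% of all genes were higher and 5.19% lower (10.8% together). By family, 2 MMPs were higher and 2 lower, 2 ADAMTS genes were higher and 1 lower, and 2 TIMPs were higher and 0 lower. Median log2 fold changes were 0.04 for the tested MMPs, 0.64 for the ADAMTS genes and 0.36 for the TIMPs, against 0 over all genes. Adamts3 and Adamts16 enter the ADAMTS median although no mCAN10 or Allo library was over the filter limit for them. Without overlap between the groups, 10 members were higher and 5 lower, against 12.2% and 10.9% of all genes (23.1% together). The lower ones include Mmp12, whose groups meet at 36.3 CPM. This comparison uses the same 4 Allo libraries as the first, so a low or high Allo value enters both with opposite sign.

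Mmp13 had 1.12, 0.38, 0.191 and 0.412 CPM in mCAN10 skin, against the 7.38 to 61.6 CPM of Allo skin. The groups were apart by several-fold, and the log2 fold change was -5.51 ± 1.36 (adjusted p = 0.0132). It was -4.49 without Allo replicate 1, -6.2 without mCAN10 replicate 1 and -4.85 with muscle content as a covariate, with adjusted p up to 0.0478 over the settings. Mmp9 had 10.9, 9.27, 11.9 and 19.1 CPM in mCAN10, against 69.3 to 129 CPM in Allo skin (-2.83 ± 0.74, adjusted p = 0.018). Its call was lost without mCAN10 replicate 1, 2 or 3 (adjusted p = 0.0518, 0.0571 and 0.0551), although every mCAN10 library was below every Allo library. Mmp10 had 0.0772, 0.0633, 0 and 0.0916 CPM in mCAN10, against 0.25 to 3.99 CPM in Allo skin. That is 6 counts over mCAN10 and 112 over Allo libraries, a ratio of 0.0415 (95% interval 0.0149 to 0.0932, counting error only), but the edgeR test over libraries did not pass (-4.36 ± 1.49, adjusted p = 0.0691). Mmp12 had 36.3, 15.3, 1.43 and 10.7 CPM in mCAN10, against 36.3 to 115 CPM in Allo skin, and did not pass (-2.02 ± 0.99, adjusted p = 0.22). Mmp1a and Mmp1b had 0 counts over mCAN10 libraries. Against a limit of 3 counts that is 4.3-fold and 7.31-fold lower than in Allo libraries, without the counting error of the Allo counts. Mmp1a had counts in Allo replicate 1 alone, and Mmp1b had 12, 4, 1 and 0 in Allo replicates 1 to 4.

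Mmp25 gave a different picture from Mmp13 and Mmp9. It had 13.8, 9.74, 3.35 and 8.97 CPM in mCAN10 and 4.5 to 14.4 CPM in Allo skin, with a change of -0.07 ± 0.65 (adjusted p = 1). Mmp19 had 54.5, 41.3, 39.1 and 44.2 CPM in mCAN10, within the 31.6 to 73.6 CPM of Allo skin (-0.37 ± 0.36, adjusted p = 0.579). Mmp8 had 0.424, 0.475, 0.239 and 0 CPM in mCAN10 and 0.375 to 1.02 CPM in Allo skin (-1.30 ± 0.73, adjusted p = 0.295). None of these 3 passed, so no change was detectable at this number of libraries. Mmp15 rose, with 34.1, 40.6, 43.9 and 57 CPM in mCAN10 against 21.1 to 28.9 CPM in Allo skin (0.84 ± 0.20, adjusted p = 0.0103). Mmp23 rose too, with 15, 19.1, 19 and 25.2 CPM in mCAN10 against 4.88 to 13.5 CPM in Allo skin (1.24 ± 0.25, adjusted p = 0.0046). Mmp2 (0.61 ± 0.35) and Mmp14 (-0.41 ± 0.35), the activating partners, did not pass, nor did Mmp3 (1.31 ± 0.74, adjusted p = 0.298).

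Adamts1 had 41.3, 35.6, 44.6 and 40.4 CPM in mCAN10, against 61.4 to 79 CPM in Allo skin (-0.76 ± 0.14, adjusted p = 0.00224). Adamts5 had 31.6, 32.5, 39.4 and 42.6 CPM in mCAN10, against 9.82 to 24.6 CPM in Allo skin (1.15 ± 0.27, adjusted p = 0.0106). The aggrecanase pair thus again moved in opposite directions. Adamts10 had 31.8, 38.5, 44.1 and 53.3 CPM in mCAN10, against 17.2 to 29.4 CPM in Allo skin (0.93 ± 0.20, adjusted p = 0.00562). Adamts14 with 37.2, 30.6, 31.1 and 36.4 CPM and Adamts7 with 8.95, 8.76, 9.42 and 8.15 CPM in mCAN10 skin were also above all Allo libraries, without passing (0.74 ± 0.32, adjusted p = 0.159, and 0.70 ± 0.24, adjusted p = 0.0657). Adamts17 had 0.54, 0.569, 1.39 and 1.05 CPM in mCAN10 against 1.2 to 3.67 CPM in Allo skin (-1.21 ± 0.43, adjusted p = 0.082). Adamts16 had 4 counts over mCAN10 and 2 over Allo libraries, a ratio of 1.55 (95% interval 0.222 to 17.1).

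**Figure D4:**
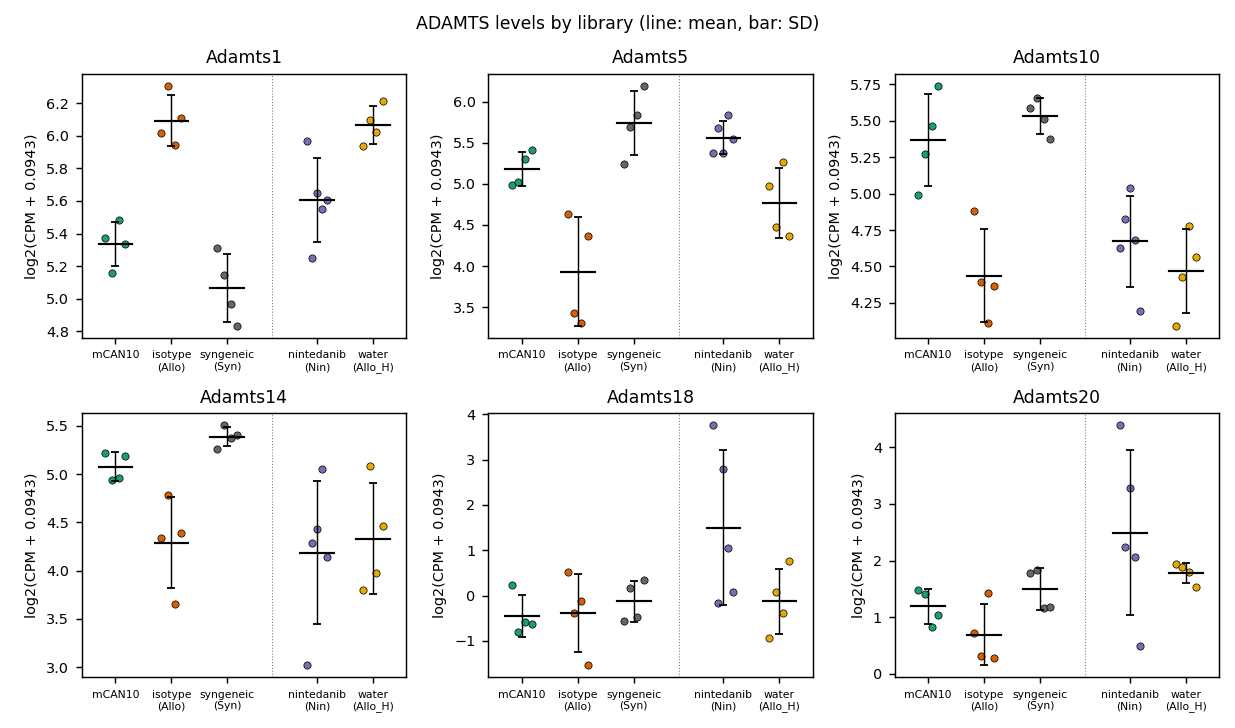
Levels of 6 ADAMTS genes in each library as log2(CPM + 0.0943), with the group mean (line) and SD (bar). Adamts1 is higher in all Allo libraries than in mCAN10 and Syn libraries while Adamts5, Adamts10 and Adamts14 are lower, and the highest Adamts18 and Adamts20 values are in Nin replicates 1 and 3.

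Timp3 had 426, 386, 349 and 345 CPM in mCAN10, against 147 to 200 CPM in Allo skin (1.07 ± 0.18, adjusted p = 0.00127). Timp2 had 446, 479, 596 and 688 CPM in mCAN10, against 254 to 357 CPM in Allo skin (0.90 ± 0.23, adjusted p = 0.014). Both inhibitors were higher in every mCAN10 library, although the call of Timp2 was lost without mCAN10 replicate 4 (0.76, adjusted p = 0.0633). Timp1 had 10.3, 5.79, 3.82 and 10.1 CPM in mCAN10, overlapping the 7.25 to 32.7 CPM of Allo skin (-1.10 ± 0.73, adjusted p = 0.392). Timp4 had 6.17, 9.3, 23.9 and 14 CPM in mCAN10 and 3.53 to 21.7 CPM in Allo skin (-0.18 ± 0.85, adjusted p = 0.964).

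The 7 calls other than Mmp9 and Timp2 were kept in all 15 other settings. With muscle content as a covariate 12 members were higher and 4 lower, and 4479 of 19438 genes were called in all. Beside these changes, activated keratinocyte markers summed to 1170 to 1671 CPM in mCAN10 and 4306 to 9321 CPM in Allo libraries (7 of 9 lower, none at 0), and neutrophil markers to 60.4 to 86.7 CPM in mCAN10 and 86.4 to 151 CPM in Allo libraries (3 of 8 tested lower, with Ly6g and Camp at 0 in 1 mCAN10 library each). Fibroblast markers summed to 4338 to 10990 CPM in mCAN10 and 1037 to 5330 CPM in Allo libraries (3 of 10 higher, none at 0). Macrophage markers summed to 1406 to 3028 CPM in mCAN10 and 1602 to 4635 CPM in Allo libraries (0 of 10 called). Of 8 adipocyte markers Lep was higher in mCAN10 skin, and of 7 basal keratinocyte markers Krt15 was higher and Krt14 lower. Their part in the result was not tested.

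Set against Syn skin, mCAN10 skin differed in no member by the same rule (0 of 40 with edgeR, 4 at an unadjusted p under 0.05, and 2 with DESeq2), where 0.811% of all genes were called (0.777% higher and 0.0342% lower). With a fit of these 2 groups alone 6 members were called, 3 higher and 3 lower, and so were 2131 of the 18953 genes tested in that fit. Among the members, 6 were higher and 3 lower without overlap between the groups, where 10.8% of all genes were higher and 8.05% lower without overlap (18.8% together). Mmp25 was one of them (2.70 ± 0.71, adjusted p = 0.0873), with 3.35 to 13.8 CPM in mCAN10 and 0.624 to 2.51 CPM in Syn skin. Timp1 was another, with 3.82 to 10.3 CPM in mCAN10 and 1.99 to 2.91 CPM in Syn skin (1.59 ± 0.75, adjusted p = 0.362). Mmp13 had 0.525 ± 0.407 CPM in mCAN10 and 0.201 ± 0.0522 CPM in Syn skin (SD, n = 4 each), and Mmp9 had 12.8 ± 4.34 CPM in mCAN10 and 15.6 ± 1.09 CPM in Syn skin. Adamts16 had 4 counts over mCAN10 and 94 over Syn libraries (ratio 0.0432, 95% interval 0.0115 to 0.114, counting error only), but the groups overlapped and the test did not pass (-4.23 ± 1.30, adjusted p = 0.147).

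The third comparison, Nin against Allo_H, asks what nintedanib changed, in the second counting run. Mmp9 and Adamts1 were lower in Nin skin, and Timp3 and Adamts18 were higher. These 4 calls, 2 in each direction, stand against 5.56% of all genes higher and 3.76% lower (9.31% together), a share close to the background. Median log2 fold changes were -0.11 for the tested MMPs, 0.34 for the ADAMTS genes and 0.06 for the TIMPs, against 0 over all genes. Mmp24 enters the MMP median although no library of this run was over the filter limit for it. None of the 4 calls was kept in every other setting, and no member was called when the 9 libraries of the run were fitted alone (94 genes called in all).

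Mmp9 had 2.95, 7.79, 4.71, 20.3 and 62.4 CPM in Nin against 51.7, 64.9, 57.2 and 259 CPM in Allo_H skin (-2.47 ± 0.67, adjusted p = 0.0282). In all, 4 Nin libraries lay below the Allo_H range, and replicate 5 lay within it. Without Allo_H replicate 4 the change was -1.56 and the call was lost (adjusted p = 0.159), as it was without Nin replicate 2 (adjusted p = 0.0501) or 3 (adjusted p = 0.0549). Without Nin replicate 5 it was -3.6. Within the libraries whose labels carry a note on sequencing lanes it was -1.25 (adjusted p = 0.775), and within the others -3.76 (adjusted p = 0.768). Mmp13 had 0.39, 1.01, 0.554, 2.83 and 28.3 CPM in Nin against 12.4, 6.26, 16.3 and 109 CPM in Allo_H skin and did not pass (-2.45 ± 1.05, adjusted p = 0.147). Nin replicate 5 was again the library inside the Allo_H range, and without it Mmp13 was called (-4.91, adjusted p = 0.00479). Without Allo_H replicate 4 the value was -0.82.

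Mmp10 had 0.167, 0.053, 0, 0.0533 and 1.47 CPM in Nin against 0.733, 0.159, 0.561 and 11.4 CPM in Allo_H skin (-3.21 ± 1.18, adjusted p = 0.0901). Mmp12 had 1.67, 10.8, 1.94, 48.6 and 26 CPM in Nin against 44.7, 86.4, 62.1 and 70.8 CPM in Allo_H skin (-1.89 ± 0.92, adjusted p = 0.204). Mmp25 had 1.34, 3.08, 2.59, 8.85 and 19.5 CPM in Nin against 6.23, 17, 10.1 and 14.9 CPM in Allo_H skin (-0.77 ± 0.62, adjusted p = 0.49). In each of these genes most Nin libraries were low and 1 or 2 were within or near the Allo_H range. Mmp1b had 2 counts over Nin and 23 over Allo_H libraries, a ratio of 0.0647 (95% interval 0.00739 to 0.262, counting error only). Mmp15 (-0.08 ± 0.19) and Mmp23 (0.48 ± 0.24) did not pass.

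Timp3 had 389, 487, 269, 412 and 463 CPM in Nin against 267, 288, 283 and 188 CPM in Allo_H skin (0.66 ± 0.17, adjusted p = 0.0218). Only Nin replicate 3 lay within the Allo_H range. The call was lost without Allo_H replicate 4 (0.53, adjusted p = 0.0866). Timp2 had 309, 478, 327, 496 and 637 CPM in Nin against 302, 450, 503 and 324 CPM in Allo_H skin (0.19 ± 0.21, adjusted p = 0.678). Timp1 had 3.29, 2.7, 8.4, 61.3 and 11.2 CPM in Nin against 9.89, 20.9, 24.1 and 17.5 CPM in Allo_H skin (-0.06 ± 0.68, adjusted p = 1). It was high in Nin replicate 4 alone, and without that library Timp1 was called lower (-1.53, adjusted p = 0.0484). Timp4 had 3.06, 20.8, 5.31, 1.28 and 1.19 CPM in Nin against 17.5, 1.96, 7.07 and 1.31 CPM in Allo_H skin (-0.13 ± 0.82, adjusted p = 1).

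Adamts1 had 62.6, 38, 50.1, 46.7 and 48.5 CPM in Nin against 61.2, 68.3, 64.9 and 74.1 CPM in Allo_H skin (-0.45 ± 0.13, adjusted p = 0.0363). Only Nin replicate 1 reached the Allo_H range. The call was lost without Allo_H replicate 2, 3 or 4 and without Nin replicate 2, 3 or 4 (adjusted p = 0.0648 to 0.111). Adamts5 had 41.4, 51, 41.3, 57 and 46.5 CPM in Nin against 31.3, 22.1, 38.5 and 20.5 CPM in Allo_H skin. It was the only member whose groups did not overlap, where 4.75% of all genes were higher and 3.2% lower without overlap (7.94% together), and it did not pass the test (0.76 ± 0.26, adjusted p = 0.0712).

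Adamts18, an orphan protease of this family, had 13.4, 0.795, 6.83, 1.97 and 0.964 CPM in Nin against 0.427, 0.955, 0.673 and 1.6 CPM in Allo_H skin (2.38 ± 0.72, adjusted p = 0.0437). Both highest values are of the replicates with high hair follicle markers, Nin 1 and 3. Without these 2 libraries, an alternative chosen after seeing the data, the change was 0.40 (adjusted p = 0.788), and with the hair follicle level as a covariate it was 0.79 (adjusted p = 0.398). The call was also lost without Nin replicate 1 (1.5, adjusted p = 0.16) or 3 (adjusted p = 0.0872) and without any one Allo_H library (adjusted p = 0.0662 to 0.11). Adamts20, which cuts versican, was not called (1.26 ± 0.51, adjusted p = 0.127) and also had its highest values there, with 20.8, 4.61, 9.61, 4.1 and 1.3 CPM in Nin against 3.72, 3.61, 3.37 and 2.79 CPM in Allo_H skin. Without the 2 libraries Timp3 kept its call (0.78, adjusted p = 0.00853) as did Adamts1 (-0.64, adjusted p = 0.0137), and Mmp9 lost it (-1.90, adjusted p = 0.081).

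Activated keratinocyte markers summed to 868 to 2802 CPM in Nin and 2310 to 11266 CPM in Allo_H libraries (5 of 9 lower, with S100a7a at 0 in every library of this run). Neutrophil markers summed to 37.6 to 70.8 CPM in Nin and 78.4 to 191 CPM in Allo_H libraries (2 of 8 tested lower, with Mpo at 0 in all 4 Allo_H libraries and Ngp in 4 Nin libraries). Macrophage markers summed to 528 to 3003 CPM in Nin and 1901 to 3791 CPM in Allo_H libraries (1 of 10 lower), and fibroblast markers to 3967 to 10908 CPM in Nin and 2186 to 4623 CPM in Allo_H libraries (0 of 10 called). Of 7 basal keratinocyte markers Krt15 was higher in Nin skin, and Krt14 and Itga6 were lower. Their part in the result was not tested.

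Whether the antibody and nintedanib acted differently on a member was tested as the difference of both effects. With edgeR 0 of 40 members passed, 7 had an unadjusted p under 0.05, and 0 passed with DESeq2, where 0 genes were called in all with edgeR and 363 with DESeq2. For Mmp9 the effects were -2.83 ± 0.74 for mCAN10 over Allo and -2.47 ± 0.67 for Nin over Allo_H, a difference of -0.37 ± 0.95 (adjusted p = 1). For Mmp13 they were -5.51 ± 1.36 and -2.45 ± 1.05, a difference of -3.06 ± 1.62 (adjusted p = 0.474). For Timp3 they were 1.07 ± 0.18 and 0.66 ± 0.17, a difference of 0.41 ± 0.24 (adjusted p = 0.526). For Mmp15, with the lowest p of all members here, the difference was 0.92 ± 0.27 (adjusted p = 0.197). These intervals are wide, and a missed threshold does not show equal effects.

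Per kilobase of exon, Timp2 had the highest level of all members in every group: 142 ± 28.5 CPM per kb in mCAN10, 75.7 ± 12.3 in Allo, 150 ± 14.4 in Syn, 115 ± 34.7 in Nin and 101 ± 25.0 in Allo_H skin (SD, n = 4, and 5 for Nin). Mmp2 was next in every group, with 101 ± 30.6 CPM per kb in mCAN10, 65.9 ± 35.6 in Allo and 81.9 ± 12.8 in Syn skin, and it does not differ from Timp2 beyond its spread in Allo skin. Mmp13 ranked 32 in mCAN10, 10 in Allo and 37 in Syn skin, with 0.196 ± 0.152, 9.17 ± 9.5 and 0.0752 ± 0.0195 CPM per kb in these groups. Mmp9 ranked 17 in mCAN10, 5 in Allo and 17 in Syn skin.

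Summed per kilobase, the MMPs came to 105, 114, 129 and 127% of the TIMPs in mCAN10 libraries, to 209, 183, 230 and 241% in Allo libraries and to 133, 119, 125 and 127% in Syn libraries. The Allo values were above all others of the first run. Mmp11 is a large part of these MMP sums. Its level was 35.1 ± 14.5 CPM per kb in mCAN10, 61.2 ± 37.8 in Allo and 77.0 ± 8.68 in Syn skin. In the second run it was 7.31 ± 7.74 in Nin and 8.06 ± 3.56 in Allo_H skin. Its Allo libraries ran from 75.7 CPM in replicate 1, with the lowest muscle sum, to 321 CPM in replicate 3, with the highest. Of its exon bases 5.6% overlap Chchd10 on the other strand. The percentages without Mmp11 were not computed. The sum of the MMPs itself overlapped between groups, at 188 to 297 CPM per kb in mCAN10, 195 to 321 in Allo and 228 to 259 in Syn libraries, while the TIMP sum was 178 to 233 CPM per kb in mCAN10, 105 to 154 in Allo and 181 to 218 in Syn libraries. In the second run the MMP sum was 72.8, 80.5, 116, 66 and 143% of the TIMP sum in Nin and 123, 102, 124 and 240% in Allo_H libraries, which overlap. Mmp9, Mmp12 and Mmp13 together made up 4.52, 2.39, 1.38 and 2.37% of the MMP sum in mCAN10, 23.5, 17.3, 15.8 and 10.7% in Allo and 1.75, 2.95, 2.39 and 2.09% in Syn libraries. Their share was 1.27, 2.68, 1.22, 8.28 and 9.54% in Nin and 16.6, 18.3, 12.9 and 40.9% in Allo_H libraries, without overlap. Both measures were composed after the values were seen and carry no test, and transcript sums say nothing of active enzyme.

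**Figure D5:**
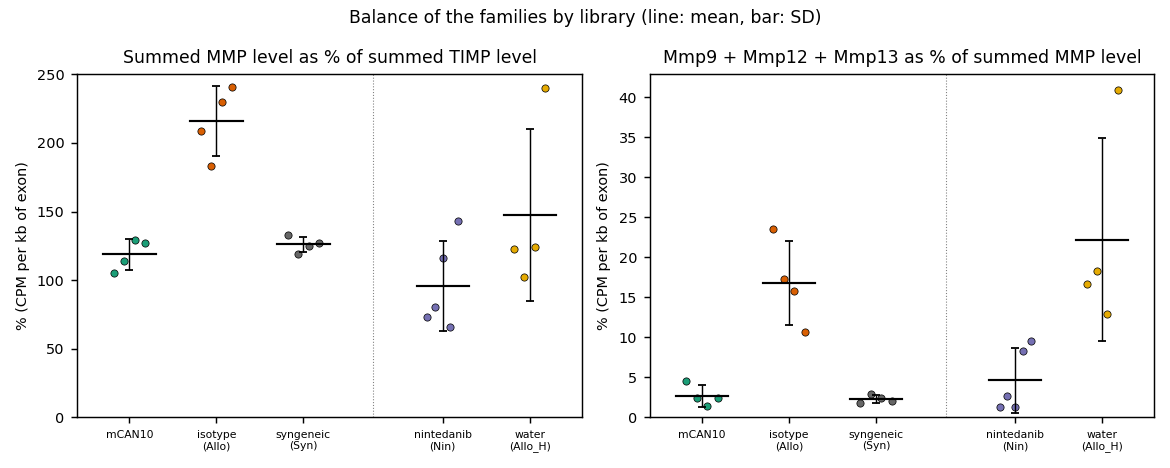
Left, the summed level of the MMPs as a percentage of the summed level of the TIMPs in each library, and right, Mmp9, Mmp12 and Mmp13 together as a percentage of the summed MMP level, all as CPM per kb of exon, with group mean (line) and SD (bar). Allo libraries are at 183 to 241% on the left and 10.7 to 23.5% on the right, above all mCAN10 and Syn libraries in both.

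Other genes of the pathway were read from lists, with the same counting rule. Over all genes, 13.8% were higher and 8.8% lower in Allo against Syn skin. These shares were 5.58% and 5.19% in mCAN10 against Allo skin. They were 5.56% and 3.76% in Nin against Allo_H skin. Of 6 tested ADAMTS-like genes, which resemble ADAMTS proteases without the catalytic domain, 2 fell in Allo against Syn skin: Adamtsl1 (-1.81 ± 0.37, adjusted p = 0.00215) and Adamtsl3 (-2.16 ± 0.48, adjusted p = 0.00349). In mCAN10 against Allo skin the same 2 genes were at 1.35 ± 0.37 (adjusted p = 0.0233) and 2.25 ± 0.48 (adjusted p = 0.00562), and 0 were called in Nin against Allo_H skin. Of 8 ADAM sheddases, 4 rose in Allo against Syn skin, led by Adam10 (0.74 ± 0.11) and by Adam8 of leukocytes (2.17 ± 0.46). In mCAN10 against Allo skin 1 fell, the TNF-releasing Adam17 (-0.51 ± 0.16), and in Nin against Allo_H skin 1 fell, Adam8 (-1.66 ± 0.42).

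Among 12 tested activators, binders and other inhibitors of MMPs, Furin, which activates membrane-type proenzymes, rose in Allo against Syn skin (1.26 ± 0.19, adjusted p = 0.00019), and Reck, a membrane-anchored MMP inhibitor (-1.26 ± 0.28, adjusted p = 0.00333), and Pcsk6 fell. In mCAN10 against Allo skin Furin fell (-0.87 ± 0.19, adjusted p = 0.00643), and Reck (1.41 ± 0.28, adjusted p = 0.00354) and Spock2 (1.44 ± 0.34) rose. In Nin against Allo_H skin 0 were called. Of 6 tested genes of plasminogen activation, the urokinase receptor Plaur rose in Allo against Syn skin (2.37 ± 0.40, adjusted p = 0.000521) and the activator Plat fell (-0.55 ± 0.16). Plat rose in mCAN10 against Allo skin (0.53 ± 0.16), and Plaur (-1.59 ± 0.37) and Serpinf2 (-1.91 ± 0.59) fell in Nin against Allo_H skin.

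Of 13 other matrix proteases, Ctss, a cathepsin of antigen-presenting cells, rose in Allo against Syn skin (3.25 ± 0.64), and the fibroblast protease Fap (-2.09 ± 0.30), Dpp4 (-1.40 ± 0.25) and Mme (-1.94 ± 0.60) fell. Fap (1.47 ± 0.30) and Dpp4 (0.98 ± 0.25) rose in mCAN10 against Allo skin. In Nin against Allo_H skin Fap (1.09 ± 0.28), Dpp4 (0.82 ± 0.23) and Mme (2.00 ± 0.59) rose and Tll2 (-2.97 ± 0.71) fell. Of 18 substrates, tenascin C (Tnc) rose in Allo against Syn skin (4.00 ± 0.50) and decorin (Dcn) fell (-1.79 ± 0.42). In mCAN10 against Allo skin Tnc fell (-2.87 ± 0.48), and Dcn (1.88 ± 0.42) and Comp (2.23 ± 0.55) rose. In Nin against Allo_H skin Col7a1 (-1.14 ± 0.31) and Tnc (-1.48 ± 0.42) fell.

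A list of 11 transcription factors, of the AP-1 and ETS families with the runt-domain factor Runx2 added, had 7 higher and 0 lower in Allo against Syn skin. Among the 7 was Runx2 (0.79 ± 0.27), and the others included Junb (1.53 ± 0.24), Jun (0.89 ± 0.18), Fosl1 (1.97 ± 0.50) and Elf3 (2.97 ± 0.76). In mCAN10 against Allo skin 0 were higher and 4 lower: Junb (-0.83 ± 0.24), Fosl1 (-1.64 ± 0.49), Elf3 (-2.42 ± 0.74) and Ets2 (-0.48 ± 0.15). In Nin against Allo_H skin Fosl1 (-2.17 ± 0.49) and Junb (-1 ± 0.22) were lower. Beside the printed promoters, Mmp13, Mmp10 and Mmp12, which hold an AP-1 motif, were higher in Allo than in Syn skin, while Mmp3, which holds one too, did not pass and Adamts1, which holds none in its window, was higher. Mmp25, Mmp8, Adamts17 and Timp1, whose windows hold none, were higher as well. So were Mmp9 and Mmp19, which had no window to search. The window of the other annotated start of Mmp12 holds no AP-1 motif. Mmp1a, Mmp1b and Mmp7, which hold one, did not pass the filter on low counts. Mmp15, Mmp23, Adamts14, Timp2 and Timp3, whose windows hold none, were lower in Allo skin. Adamts5, Adamts7, Adamts10 and Adamts16, also lower, had no window. Any link between these factors and the members was not tested.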

How the data were processed

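Whole-number counts per gene symbol were deposited by the authors. The submitters' processing notes name FastQC, Trimmomatic, STAR, featureCounts and GRCm39 but no versions or gene annotation. Per the labels' protocols, 1 µg of RNA was made into poly-A libraries with an unstranded kit. Coordinates and exon overlaps come from GRCm38 annotation and are used for promoters and lengths only.

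All 21 libraries entered 1 quasi-likelihood fit in edgeR 4.0.16 (R 4.3.3; filterByExpr at a minimum count of 10, TMM), which left 20462 genes, with Benjamini-Hochberg adjustment over them. The spread is thus shared by all 5 groups, and p-values measure the spread between samples, which the labels do not say are separate mice. The SE given with an edgeR change is the size of the log2 fold change divided by the square root of the test's F statistic. DESeq2 1.42.0 was an alternative, and others are given with their effect. The calculations were tested on simulated data.

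Members, gene lists, the tests and the rule for named genes were chosen with earlier results of these data known. Named with library values were members called in a comparison, plus Mmp9, Mmp13 and the TIMPs. Mmp1a, Mmp1b, Mmp2, Mmp3, Mmp11, Mmp14, Adamts2, Adamts4 and Adamts20 were added after their values were seen. From other lists up to 4 called genes with the lowest p are named, with Runx2 added. Intervals cover counting error only. Folds against a floor of 3 counts leave out the counting error of the other group. Replicate numbers, also used for the replicate block, are those of the sample titles and did not clearly pair the samples (correlations of deviations -0.23 to 0.35). The mCAN10 count columns are numbered differently from the titles, and pairing by those numbers was not checked. Figures were drawn with matplotlib 3.10.9.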

Additional observations from a re-analysis of the deposited data

Results flagged for a closer look

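Within-group outliers were sought by Dixon's test in 105 groups of values, for 21 named members in 5 groups, and 5 were found, where chance gives about 1 in 20. Mmp9 was at 259 CPM in Allo_H replicate 4, far above the 51.7 to 64.9 CPM of the other Allo_H libraries. Timp2 was at 668 CPM in Syn replicate 2, against 551 to 561 CPM in the other Syn libraries, a small difference in a tight group. Timp4 was at 3.53 CPM in Allo replicate 1, the library with almost no skeletal muscle marker counts, against 15.9 to 21.7 CPM in the other Allo libraries. Adamts16 was at 0.337 CPM in Allo_H replicate 3 and at 0.567 CPM in Nin replicate 5, where the other libraries of those groups held between 0 and 0.0557 CPM.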

How the results depend on the processing

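In Allo against Syn skin the number of called members stayed between 15 and 22 under RLE size factors, no filter, DESeq2, a fit of the counting run or of 2 groups, and muscle content as a covariate, and between 13 and 16 without 1 library. For mCAN10 against Allo skin it was 14 with DESeq2 and 16 with muscle content as a covariate, 9 to 11 in the other settings and 8 to 12 without 1 library. For mCAN10 against Syn skin it was 2 with DESeq2, 1 with the counting run alone, 6 with the 2 groups alone and 2 with muscle content. For Nin against Allo_H skin it was 7 with DESeq2, 2 with no filter and 2 without the libraries with hair. It was 0 with the counting run alone, the 2 groups alone, hair follicle level or the lane note as a covariate, and within libraries with the lane note (7 members at an unadjusted p under 0.05) or without it (6 members). Leaving out 1 library gave 0 (without Allo_H replicate 4) to 8 (without Nin replicate 5). The cause was not tested. With the replicate block 18, 10, 0 and 6 members were called in these 4 comparisons and 0 for the difference of effects, and Adamts7 (adjusted p = 0.0585) and Mmp19 (adjusted p = 0.0704) lost their calls in Allo against Syn skin. In Nin against Allo_H skin the block shared 2 of the 4 calls: Adamts1 (adjusted p = 0.0619) and Adamts18 (adjusted p = 0.0576) lost theirs, and Mmp13 was called (-4.55, adjusted p = 0.00692).

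Signs turned only in members without a call. In Nin against Allo_H skin Mmp13 was at 0.07 within libraries with the lane note. Timp1 was at 0.08 with hair follicle level, 0.64 within libraries without the lane note, 0.43 without the libraries with hair, and -1.53 to 0.22 without 1 library. Timp2 was at -0.04 within libraries without the lane note. Timp4 was at 0.09 with the replicate block, 0.10 with hair follicle level, 0.13 without the libraries with hair and -1.35 to 0.87 without 1 library. Without 1 library, Timp4 was at -0.12 to 0.57 in Allo against Syn and -0.63 to 0.05 in mCAN10 against Allo skin. Depth limits Mmp8, Mmp10, Adamts3, Adamts16 and the members under the filter.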
